A study of Rattus norvegicus with 38 samples.

Results

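The genes described here are 7 immediate early genes, chosen by name and row: Fos (ENSRNOG00000008015), Jun (ENSRNOG00000026293), Junb (ENSRNOG00000042838), Egr1 (ENSRNOG00000019422), Nr4a1 (ENSRNOG00000007607), Arc (ENSRNOG00000043465) and Dusp1 (ENSRNOG00000003977). All 7 were present among the 32883 Ensembl gene IDs (IDs below) of the deposited table, and all 7 passed the filter on low counts in every comparison. Immediate early genes are transcribed within minutes of a stimulus, from transcription factors already present in the cell, and in cortical neurons they are widely used as markers of recent activity. The signal runs through cAMP and calcium to CREB, and through the MAP kinases to the serum response factor. Fos, Jun and Junb encode subunits of the AP-1 transcription factor, Egr1 a zinc finger transcription factor, and Nr4a1 an orphan nuclear receptor. Arc encodes a cytoskeleton-associated protein of the synapse that promotes the internalisation of AMPA receptors. Dusp1 encodes a phosphatase that switches MAP kinases off again.

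Their transcripts were counted in cortical blood vessels and in clusters of cortical neurons cut by laser from the frontal brain of 2 rat strains. SHRSP is the stroke-prone form of the spontaneously hypertensive rat, and Wistar served as the comparison strain. Early animals were 24 to 25 weeks old and late animals 32 to 34, and the labels name no treatment. Each material had 5 early Wistar, 5 early SHRSP, 4 late Wistar and 5 late SHRSP libraries, 1 of each material from each of 19 numbered animals. The sources used here do not give how the pieces were chosen or how the tissue was taken. Because the other IDs of the table carry no names, the labelled materials could not be checked against cell type markers, and the wider pathway could not be described by name. In such bulk material, fewer cells of a type and less RNA per cell cannot be told apart.

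Of the 7 genes, 4 had an entry in the RefSeq promoter table of the rat assembly GRCr8, which holds the 250 bases before and the first 50 bases of each gene's start. They are shown because such windows can hold the response elements through which immediate early genes are usually switched on. A link between the motifs and the levels or correlations reported below was not tested. Egr1 lies at chr18:26736828-26737127, Junb at chr19:40080876-40081175, Nr4a1 at chr7:134259888-134260187 and Dusp1 at chr10:17184603-17184902, all on the + strand. Capitals mark the matches to the motifs described after them.
Egr1: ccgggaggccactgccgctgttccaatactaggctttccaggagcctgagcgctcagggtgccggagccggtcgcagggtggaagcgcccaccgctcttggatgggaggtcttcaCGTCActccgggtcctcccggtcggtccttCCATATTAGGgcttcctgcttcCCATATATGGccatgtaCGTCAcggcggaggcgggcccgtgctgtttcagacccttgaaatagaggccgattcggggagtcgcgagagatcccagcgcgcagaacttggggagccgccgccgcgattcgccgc
Junb: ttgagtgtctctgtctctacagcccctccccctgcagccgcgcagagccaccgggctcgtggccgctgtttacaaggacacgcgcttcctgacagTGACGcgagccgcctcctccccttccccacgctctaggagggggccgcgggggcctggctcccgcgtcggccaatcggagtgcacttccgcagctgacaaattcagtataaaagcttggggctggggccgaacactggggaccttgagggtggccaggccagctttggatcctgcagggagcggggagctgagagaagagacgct
Nr4a1: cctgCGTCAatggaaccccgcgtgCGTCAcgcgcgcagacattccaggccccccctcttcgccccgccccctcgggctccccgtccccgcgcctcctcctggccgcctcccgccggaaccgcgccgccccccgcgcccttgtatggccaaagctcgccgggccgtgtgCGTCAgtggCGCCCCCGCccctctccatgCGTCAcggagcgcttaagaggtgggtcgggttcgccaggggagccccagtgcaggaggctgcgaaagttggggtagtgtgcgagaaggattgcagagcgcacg
Dusp1: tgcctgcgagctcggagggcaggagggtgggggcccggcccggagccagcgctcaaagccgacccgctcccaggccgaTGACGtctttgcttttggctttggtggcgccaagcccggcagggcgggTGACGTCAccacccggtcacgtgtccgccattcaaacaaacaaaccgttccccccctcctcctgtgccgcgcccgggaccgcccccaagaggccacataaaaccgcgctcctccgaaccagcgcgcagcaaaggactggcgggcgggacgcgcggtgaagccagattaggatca
The search covered 4 motifs on both strands: the full cAMP response element TGACGTCA, its core TGACG, the Egr site GCGTGGGCG or GCGGGGGCG, and the CArG box bound by the serum response factor. The Dusp1 window held 1 full cAMP response element, which began 124 bases before the start. In the whole table, 1.83% of all 33469 promoters held that element. The core TGACG was found in 21.2% of all promoters, and it was present in all 4 windows, with 4 matches in Nr4a1, 3 in Dusp1, 2 in Egr1 and 1 in Junb. Of the 3 in Dusp1, the 2 nearest the start are the arms of its full element. The Egr1 window held 2 CArG boxes, beginning 105 and 83 bases before the start, and 1.64% of all promoters held at least 1. The Nr4a1 window held 1 Egr site, 73 bases before the start, against 3.20% of all promoters. These are matches of letters, and binding was not measured.

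Totals ranged from 1198386 to 4963429 counts per library. A single ID, ENSRNOG00000043866, accounted for 4.34% to 10.7% of neuron counts in 8 animals, called low-share, and for 20.4% to 35.5% in the other 11, called high-share. All 9 late animals were high-share, with early Wistar animal 349 and early SHRSP animal 383. All 8 low-share animals were early, so stage and this library set cannot be told apart in 17 of the 19 animals. Between 4104 and 8752 IDs were detected in a low-share vessel library, and between 9875 and 11974 in a high-share one.

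In neurons, Egr1, Nr4a1 and Arc were lower at the late stage than at the early stage, averaged over both strains. Egr1 was 2.01-fold lower, Nr4a1 4.79-fold and Arc 4.24-fold. The 3 that passed are a transcription factor of each of 2 families and the synaptic gene. The 3 AP-1 genes and Dusp1 did not pass, although all 7 estimates were negative. The count of 3 of 7 stands against 28.9% of all 10833 IDs called in this comparison in either direction and 13.2% called lower. The median log2 fold was -1.005 over the 7 genes and -0.07 over all IDs. With library totals in place of TMM scaling all 7 passed, and the median of all IDs was then -0.42.

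Egr1 measured 576, 401, 377, 356 and 522 CPM (counts scaled to a common library size by TMM) in the 5 early Wistar neuron libraries. It measured 423, 497, 412, 151 and 231 CPM in early SHRSP neurons. The late values were 269, 190.5, 177 and 239 CPM in Wistar and 249, 136, 135, 209 and 138 CPM in SHRSP. Of the 10 early libraries, 8 lay above all 9 late ones. The exceptions were SHRSP animals 383, at 151 CPM, and 386, at 231 CPM. The log2 fold of late against early was -1.005 (SE 0.19, adjusted p = 0.00062, edgeR quasi-likelihood test).

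Nr4a1 measured 32.3, 40.0, 19.4, 13.1 and 29.4 CPM in early Wistar neurons and 64.9, 12.1, 37.3, 0.271 and 12.4 CPM in early SHRSP neurons. In late neurons it measured 4.37, 13.8, 1.31 and 5.34 CPM in Wistar and 7.09, 0.467, 2.76, 11.1 and 0.384 CPM in SHRSP. Early animal 383 had a single Nr4a1 count and the lowest level of all 19 libraries, whereas 6 of the 10 early libraries exceeded every late one. The log2 fold was -2.26 (SE 0.61, adjusted p = 0.0093, edgeR).

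Arc measured 16.8, 52.1, 10.5, 39.4 and 16.8 CPM in early Wistar neurons and 47.8, 11.8, 38.5, 1.89 and 11.1 CPM in early SHRSP neurons. Its late values were 5.24, 29.9, 0.876 and 2.20 CPM in Wistar and 3.08, 1.40, 1.93, 9.41 and 0.384 CPM in SHRSP. Late Wistar animal 351, at 29.9 CPM, was above 6 of the 10 early libraries, and the other 8 late libraries reached at most 9.41 CPM. The log2 fold was -2.08 (SE 0.62, adjusted p = 0.0157, edgeR). Late libraries held 1 to 93 counts of Arc, so its late levels rest on few reads.

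The AP-1 genes and Dusp1 overlapped between the stages, as did the 3 genes that passed. For Junb and for Dusp1, 5 of the 10 early libraries lay above all 9 late ones. That count was 3 for Fos and 4 for Jun, and among the genes that passed it was 4 for Arc, 6 for Nr4a1 and 8 for Egr1. Junb ranged from 26.2 to 235 CPM early (median 79.8) and from 11.7 to 80.0 CPM late (median 43.4), with a log2 fold of -0.98 (SE 0.39, adjusted p = 0.0626, edgeR). Dusp1, the inhibitor of the group, ranged from 11.6 to 105 CPM early (median 57.2) and from 3.27 to 49.3 CPM late (median 22.9), with a log2 fold of -1.04 (SE 0.43, adjusted p = 0.0781, edgeR). Fos ranged from 3.25 to 47.2 CPM early (median 24.2) and from 2.49 to 33.0 CPM late (median 11.8). Its log2 fold was -0.80 (SE 0.44, adjusted p = 0.183, edgeR). Jun was the most even of the 7, at 63.5 to 102 CPM early and 48.6 to 86.1 CPM late, with a log2 fold of -0.22 (SE 0.13, adjusted p = 0.211, edgeR).

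**Figure D1:**
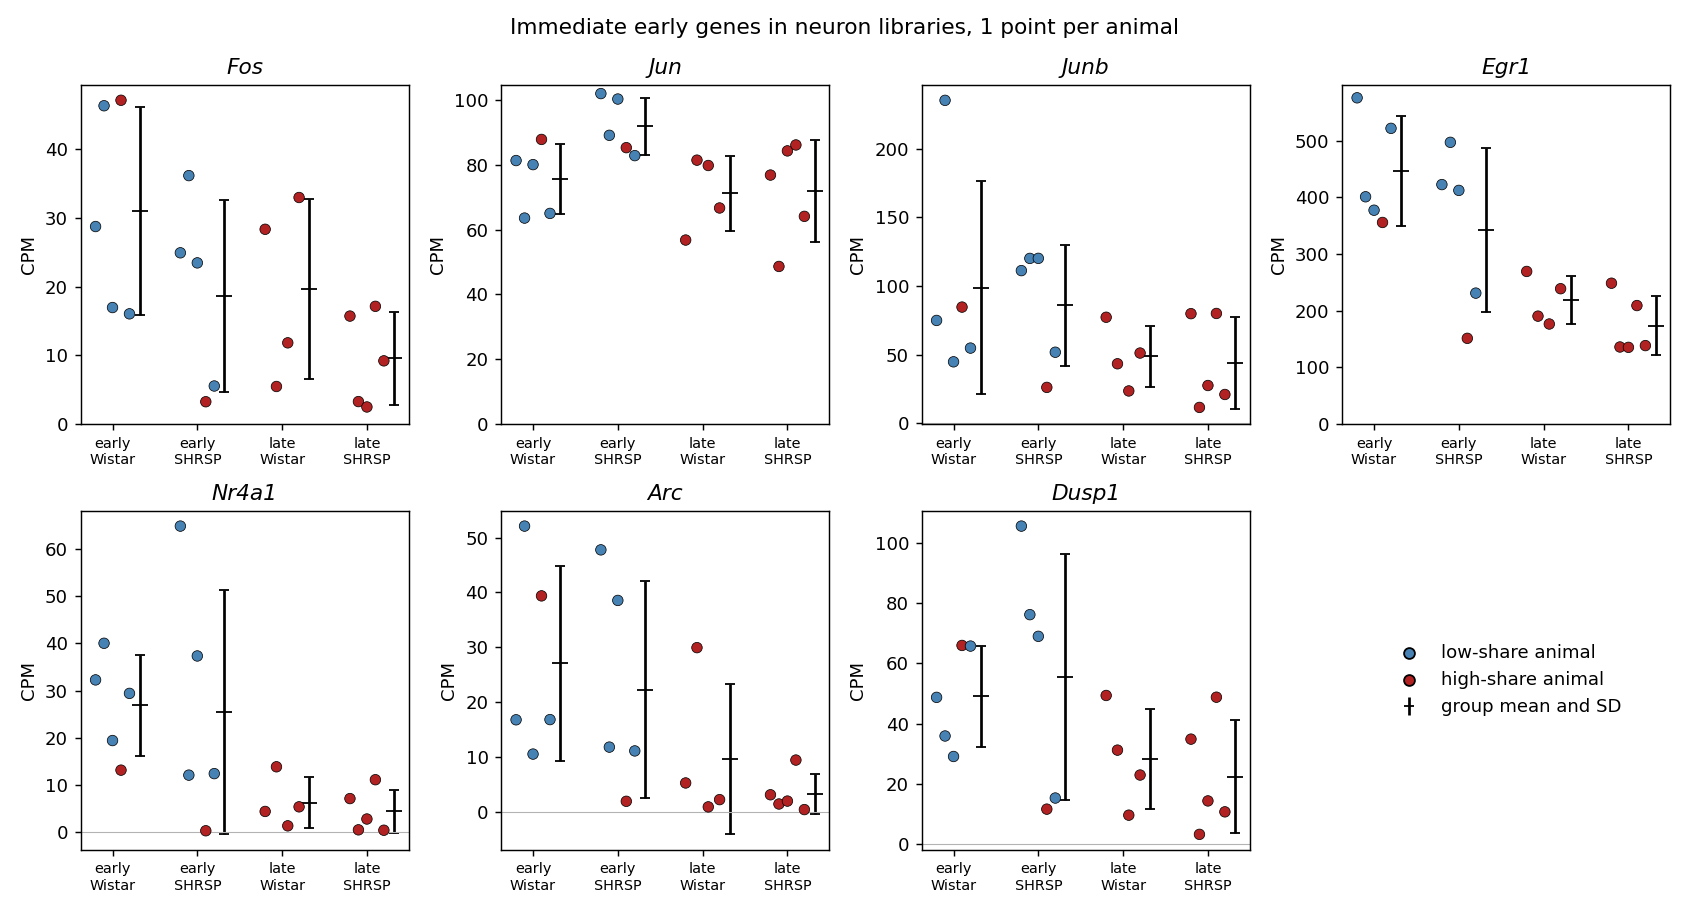
Levels of the 7 genes in the neuron libraries, in CPM on a linear axis from each gene's own scale, by stage and strain. Each point is 1 animal, coloured by library set, and the bars give the group mean and SD (n = 5, 5, 4 and 5). Late animals are all high-share, and for Egr1 the early high-share animal 383 sits at 151 CPM, within the late range of 135 to 269 CPM, while the other one, animal 349, sits at 356 CPM, above all 9 late animals.

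Stage and library set could not be told apart, and the estimates moved with the way the set was handled. With the set as a term of the fit, the log2 fold was -0.30 (SE 0.27) for Egr1, -1.65 (SE 0.99) for Arc and -0.12 (SE 0.97) for Nr4a1. None of the 7 genes then passed in edgeR, and 3 of all 10833 IDs did. Among the 11 high-share animals alone, 2 early against 9 late, the log2 fold was -0.27 (SE 0.24) for Egr1, -0.62 (SE 1.24) for Arc and 1.39 (SE 1.22) for Nr4a1, and again none of the 7 passed. The 2 early animals differed: against the late animals of their strain, all 7 estimates were negative for Wistar animal 349, and 6 of 7 were positive for SHRSP animal 383. Each of these strain comparisons rests on 1 early library, which is assumed to vary like the other groups. The low-share set holds early animals only and gives no value. When the 2 early high-share animals were left out instead, 5 of the 7 passed: Egr1, Nr4a1, Arc, Junb at a log2 fold of -1.11 and Dusp1 at -1.10. That comparison was added after the data had been seen, and it sets low-share early against high-share late animals only.

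**Figure D2:**
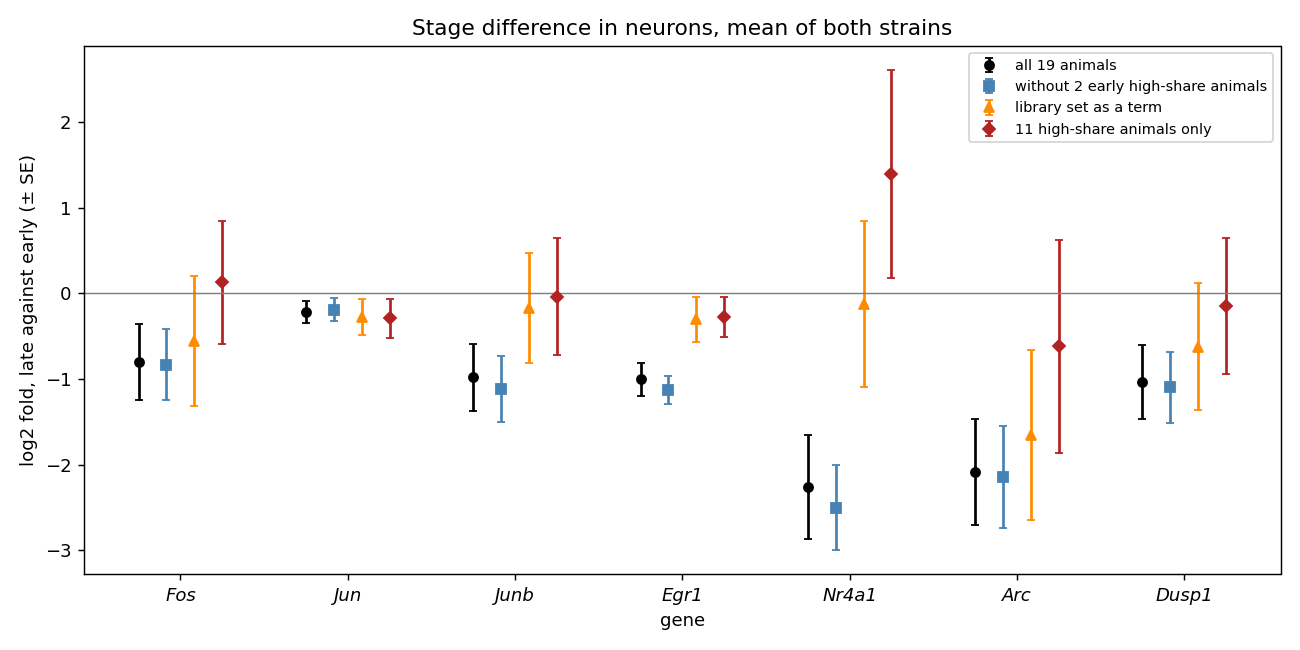
Log2 fold of late against early neurons for each gene, as the mean of both strains, with bars of 1 SE. Black points use all 19 animals, and the other symbols leave out the 2 early high-share animals, add the library set to the fit or keep the 11 high-share animals. For Nr4a1 the estimate moves from -2.26 with all animals to 1.39 among high-share animals, with an SE of 1.22.

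Egr1 was the gene that passed within each strain. In SHRSP neurons it was lower late by a log2 fold of -0.98 (SE 0.26, adjusted p = 0.0216, edgeR), and in Wistar neurons by -1.03 (SE 0.28, adjusted p = 0.0239, edgeR). The mean was 343 ± 145 CPM early and 174 ± 52.4 CPM late in SHRSP (SD, n = 5 each), and 446 ± 96.8 (n = 5) against 219 ± 43.0 CPM (n = 4) in Wistar. Thus 1 of 7 genes passed in each strain, against 8.85% of all IDs in SHRSP (2.73% called lower) and 9.31% in Wistar (3.47% called lower). The log2 fold of Arc was -2.70 (SE 0.88, adjusted p = 0.0583, edgeR) in SHRSP and -1.47 (SE 0.86, adjusted p = 0.275, edgeR) in Wistar. Nr4a1 had -2.45 (SE 0.84, adjusted p = 0.0697, edgeR) in SHRSP and -2.07 (SE 0.88, adjusted p = 0.132, edgeR) in Wistar. The Egr1 call was lost on leaving out any of 374, 377, 379, 380 or 384 in SHRSP, or any of 340, 353, 354 or 368 in Wistar. Its log2 fold with 1 animal left out stayed between -1.15 and -0.81 in SHRSP and between -1.14 and -0.92 in Wistar. Without animal 383, Arc and Nr4a1 passed in SHRSP as well, at log2 folds of -2.99 and -2.76.

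The stage difference itself was not shown to differ between the strains. The strain by stage term passed for 0 of 7 genes and for 0% of all IDs in edgeR, 0 of the 7 had an unadjusted p under 0.05, and DESeq2 and limma voom called none of the 7. The Arc term had the largest size, a log2 value of -1.22 (SE 1.20), and the Egr1 term was 0.05 (SE 0.37).

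None of the 7 genes passed a test of strain in neurons. Averaged over the stages, 0 of 7 passed in edgeR, against 0.674% of all IDs. The early comparison gave 0 of 7 against 0.222%, and the late comparison 0 of 7 against 0.0369%. None of the 7 had an unadjusted p under 0.05 in these 3 comparisons, and DESeq2 and limma voom called none. In simulated neuron counts, the strain test over both stages found 58.6% of 2-fold and 94.8% of 4-fold changes. The lack of calls for strain therefore does not show that levels were equal. The estimates over both stages were -0.94 (SE 0.60) for Arc, -0.89 (SE 0.44) for Fos, -0.36 (SE 0.19) for Egr1, -0.31 (SE 0.59) for Nr4a1, -0.17 (SE 0.38) for Junb, -0.08 (SE 0.43) for Dusp1 and 0.15 (SE 0.13) for Jun, as log2 folds of SHRSP against Wistar. For Fos, the strain means were 31.1 ± 15.2 CPM in Wistar and 18.7 ± 14.0 CPM in SHRSP at the early stage (SD, n = 5 each). At the late stage they were 19.7 ± 13.1 (n = 4) and 9.57 ± 6.81 CPM (n = 5).

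The genes differed in how much they varied between animals of the same group. The biological coefficient of variation in neurons was 0.819 for Nr4a1 and 0.815 for Arc, which placed both at the 98.5th percentile of all IDs tested. It was 0.619 for Fos, 0.597 for Dusp1 and 0.533 for Junb, against a median of 0.341 over all IDs. Egr1, at 0.285, and Jun, at 0.195, were below that median, and Jun was at the 6.30th percentile. Jun and Egr1 were thus measured more evenly than the other 5, and the SE of their folds was smaller accordingly.

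Within groups, neuron libraries that were high in 1 of these genes tended to be high in the others, with lower correlations for Jun. Deviations of log2 CPM from the group mean were correlated across the 19 animals for the 21 pairs of genes, and p-values were adjusted over the 42 pairs of both materials. The median Pearson r was 0.691, and the 21 values ran from 0.133 to 0.842. Over all pairs of IDs in neurons the median was 0.015, and 2.54% of those pairs reached 0.691. By Pearson r, 12 of the 21 pairs passed the permutation test with 100000 resamples within groups, and by Spearman rho 11 did. All 12 were among the 15 pairs without Jun, and 0 of the 6 pairs with Jun passed. The Jun pairs were all positive, with a median r of 0.303, and they were not tested against the other pairs. With library totals in place of TMM, Jun with Nr4a1 passed (r = 0.617, permutation test, adjusted p = 0.0220), and without animal 350, Jun with Dusp1 passed (r = 0.626, permutation test, adjusted p = 0.0445).

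Arc and Nr4a1 were the closest pair, with r = 0.842 and rho = 0.793 (permutation test, adjusted p = 0.0025 for r and 0.0106 for rho). Dusp1, the phosphatase, followed Egr1 with r = 0.805 and rho = 0.809 (permutation test, adjusted p = 0.0072 and 0.0146). It followed Junb with r = 0.799 and rho = 0.788 (permutation test, adjusted p = 0.0067 and 0.0106). Fos and Junb, which can both pair with Jun in AP-1, had r = 0.786 and rho = 0.735 (permutation test, adjusted p = 0.0067 and 0.0146). With the 2 animals farthest from the median of 1 gene of the pair left out, r stayed between 0.622 and 0.900 over the 12 pairs. Animals far out in the other gene only were kept. The pairs of Fos with Arc, at r = 0.357, and of Egr1 with Arc, at r = 0.475, did not pass. For Jun the highest r was 0.463, with Dusp1.

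The number of pairs that passed depended on animal 383. The mean deviation over the 7 genes was lowest in early SHRSP animal 383, at -1.79 on the log2 scale, followed by late SHRSP animal 379 at -1.06, and highest in late SHRSP animal 382 at 1.17 and early SHRSP animal 374 at 1.06. Animal 383 is the early SHRSP animal of the high-share set. Without animal 383, 4 of the 21 pairs passed: Fos with Junb, Egr1 with Dusp1, Arc with Nr4a1 and Junb with Dusp1. All 21 r stayed positive without it, with a median of 0.586. Leaving out animal 374, 379 or 382 left 10, 11 and 10 pairs that passed. Within the 9 late animals, all high-share, the median r was 0.596 and 3 of 21 pairs passed (exact permutation test). Within the 8 early low-share animals it was 0.424 and 0 of 21 passed (exact permutation test). So few animals allow few permutations within groups, and a single pair could not have passed the adjustment there at any r.

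**Figure D3:**
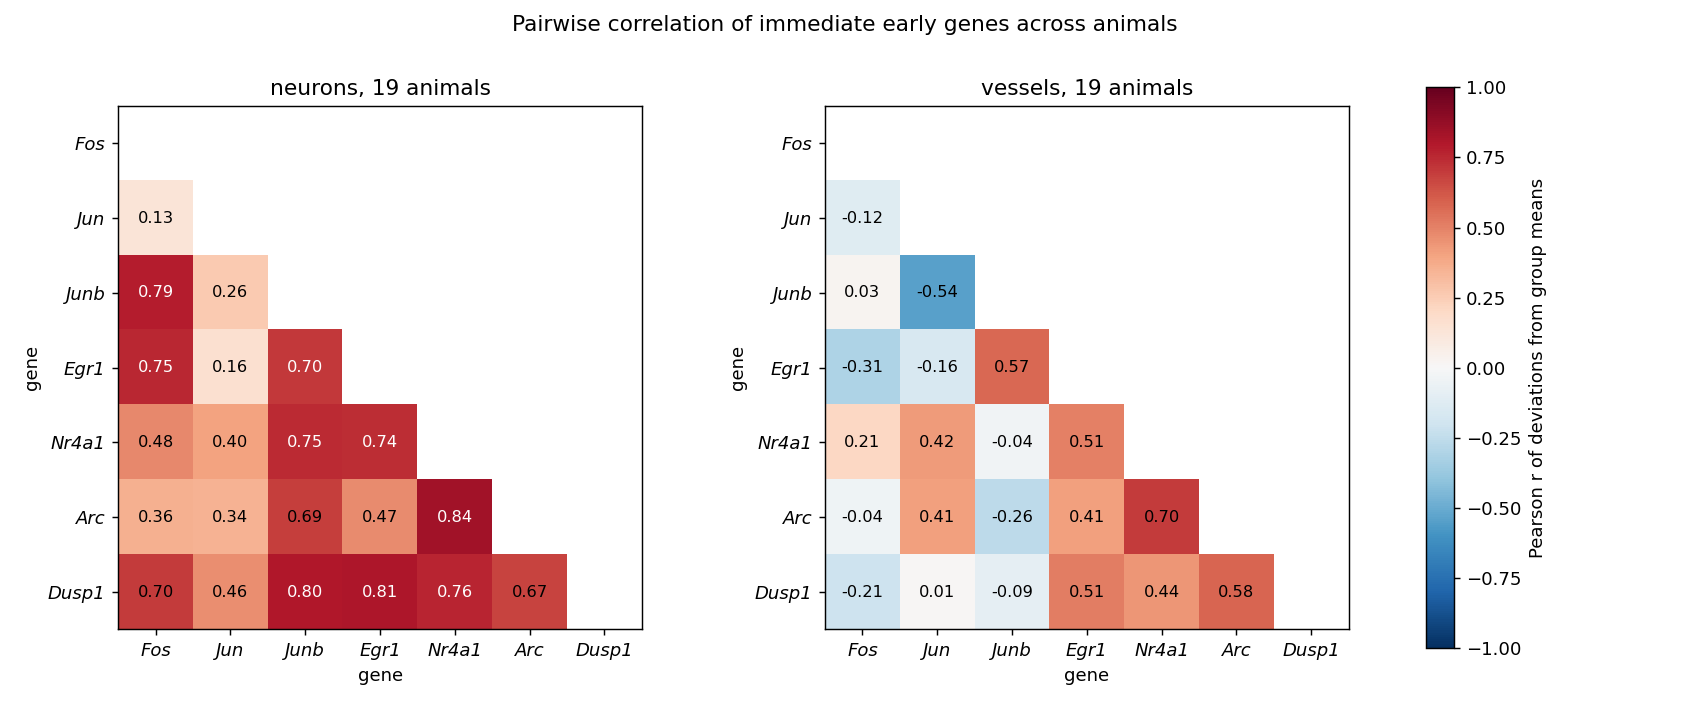
Pearson r of each pair of genes across the 19 animals, from deviations of log2 CPM from the group means, in neurons (left) and vessels (right). Colour and printed value both give r. In neurons all 21 values are positive, and the row and column of Jun are the palest, while in vessels r runs from -0.54 to 0.70.

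In vessels none of the 7 genes passed a test of strain or stage. These tests had little power. In simulated vessel counts, the strain test over both stages found 0% of 2-fold and 0% of 4-fold changes. The stage test over both strains found 0% of 2-fold and 2.15% of 4-fold changes. The lack of calls in vessels therefore does not show that levels were equal. For strain, 0 of 7 passed in edgeR over both stages, early and late, against 0.0817%, 0.254% and 0% of all 11011 IDs tested. For stage, 0 of 7 passed over both strains, in SHRSP and in Wistar, against 0.0363%, 0.00908% and 0.00908%. The strain by stage term passed for 0 of 7 against 0.00908%. The smallest unadjusted p-values belonged to Jun, which alone was under 0.05 in the early strain comparison (log2 fold 2.07, SE 1.03, adjusted p = 0.311, edgeR) and in the stage comparison of SHRSP (log2 fold -2.33, SE 1.04, adjusted p = 0.248, edgeR). In the other 5 comparisons 0 of 7 were under 0.05, and DESeq2 and limma voom called none in all 7. The biological coefficient of variation of the 7 genes in vessels ran from 0.917 for Egr1 to 2.01 for Arc, with a median of 1.68 over all IDs there.

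Vessel libraries were uneven, and in part all-or-none. No neuron library had any of the 7 genes at 0 counts. In vessels, 16 of the 56 values in low-share libraries were 0, or 28.6%, against 4 of 77 in high-share libraries, or 5.19%, and these 4 were all Arc. Jun and Egr1 were counted in all 19 vessel libraries. Arc was at 0 in 9 of them, Nr4a1 in 5, Fos in 3, Dusp1 in 2 and Junb in 1. At these depths a count of 0 allows 0.604 to 1.86 CPM, for counting error only.

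The early SHRSP vessel libraries show how the genes differed from library to library. Arc measured 136, 0, 0, 0.841 and 0 CPM in animals 374, 377, 380, 383 and 386, and Nr4a1 181, 0, 0, 3.09 and 0 CPM. Both were thus high in animal 374 alone. Jun measured 716, 248, 26.2, 87.2 and 189 CPM and was also highest there. Junb, however, measured 0.924, 0, 82.2, 41.8 and 77.8 CPM and was near 0 in that animal. Dusp1 measured 133, 0.620, 459, 45.2 and 0.331 CPM, and its highest library, that of animal 380, held no Fos, Arc or Nr4a1. Egr1 measured 376, 1.86, 259, 138 and 204 CPM, so the library of animal 377 nearly lacked it while Fos, at 28.5 CPM, was among the 2 highest of the group. Fos in the group measured 0.462, 28.5, 0, 29.5 and 0 CPM.

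Early Wistar vessels were similarly uneven, and the late groups less so. In early Wistar vessels Dusp1 measured 40.2, 0, 0, 57.0 and 155 CPM and Nr4a1 25.5, 0.256, 0, 34.7 and 0 CPM in animals 340, 343, 346, 349 and 368. High-share animal 349 and low-share animal 340 held all 7 genes. In late vessels Dusp1 measured 18.3, 21.6, 17.9 and 49.5 CPM in Wistar and 63.9, 64.1, 30.8, 55.2 and 25.3 CPM in SHRSP. Egr1 in late vessels measured 297, 136, 80.8 and 247 CPM in Wistar and 257, 222, 88.2, 114 and 111 CPM in SHRSP. The late ranges lay inside the early ranges for both genes. Fos had a median of 1.39 CPM in early and 15.8 CPM in late vessels, with 3 early libraries at 0. Its log2 fold of late against early was 0.90 (SE 1.42, adjusted p = 0.920, edgeR).

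**Figure D4:**
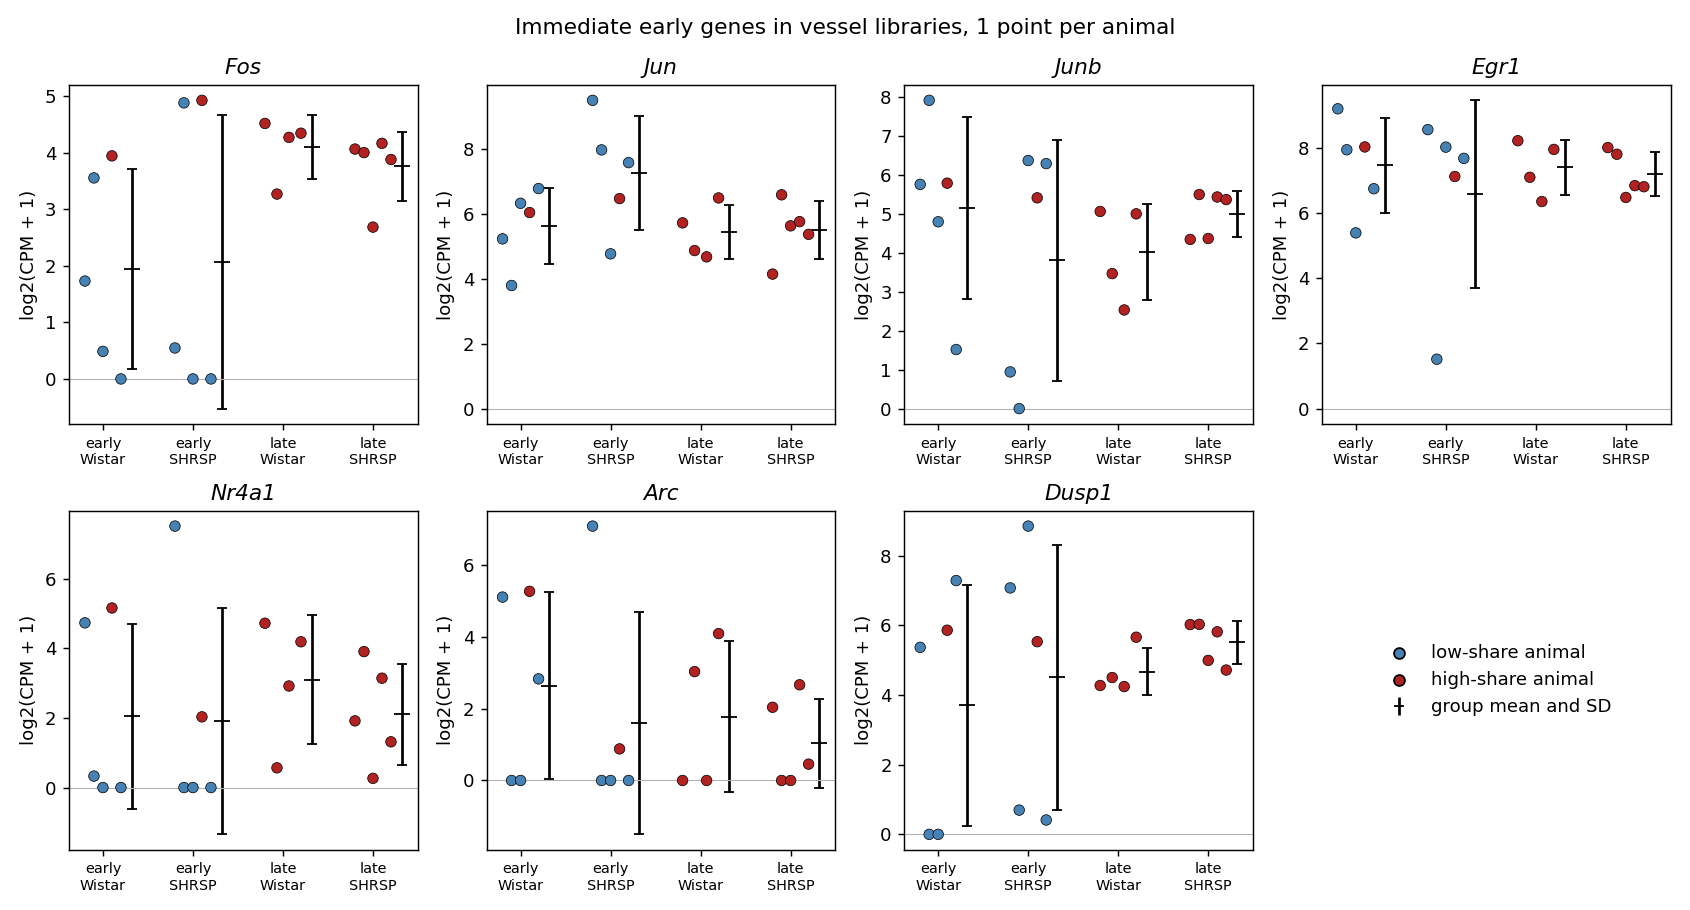
Levels of the 7 genes in the vessel libraries, as log2(CPM + 1), by stage and strain. Each point is 1 animal, coloured by library set, and the bars give the group mean and SD on that scale (n = 5, 5, 4 and 5). Points at 0 are libraries without a count, and they lie in the low-share animals except for 4 late libraries of Arc.

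In vessels the correlations between the genes were scattered around 0. The median r over the 21 pairs was 0.0255 in vessels, under the median of 0.126 over all pairs of IDs there, and 64.1% of all pairs were at or above the members' median. Arc with Nr4a1 was the only pair to pass by r, at r = 0.698 (permutation test, adjusted p = 0.0458). Its rho was 0.483 (permutation test, adjusted p = 0.209), and r was 0.433 without the 2 animals farthest from the median of Arc. It no longer passed when any of 12 animals was left out, among them animal 374, which had the highest level of both genes. By rho, Arc with Dusp1 passed (rho = 0.651, permutation test, adjusted p = 0.0439). The difference in correlation between the materials was not tested. Within sets, 0 of 21 vessel pairs passed in either the 9 late or the 8 low-share early animals (exact permutation test). In the low-share early animals a single pair could not have passed at any r, because few permutations exist.

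No gene passed the test of whether its level in neurons went with that in vessels of the same animal. Across the 19 animals, r between the materials was 0.371 for Arc, 0.306 for Dusp1, 0.243 for Fos, 0.0384 for Nr4a1, 0.0352 for Junb, -0.0963 for Egr1 and -0.155 for Jun. None of the 7 passed the permutation test, with the smallest adjusted p at 0.827, and rho gave none either, with the smallest at 0.641. With the 2 animals farthest from the median in neurons left out, r was 0.547 for Fos, 0.486 for Dusp1, 0.473 for Egr1, 0.368 for Arc, 0.00963 for Jun, -0.0920 for Junb and -0.260 for Nr4a1. The sign thus turned for Egr1, Jun, Junb and Nr4a1. For Fos, r was 0.782 within the 9 late animals (exact permutation test, adjusted p = 0.0535) and 0.722 within the 8 early low-share animals (exact permutation test, adjusted p = 0.267).

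Vessels held less of Arc and Egr1 than neurons of the same animals in the fit with the animal as a block. The log2 fold of vessels against neurons was -2.68 for Arc (SE 0.98, adjusted p = 0.0167, edgeR) and -0.74 for Egr1 (SE 0.31, adjusted p = 0.0378, edgeR). These 2 of 7 genes stand against 50.5% of all 12117 IDs called in either direction and 47.5% called lower. The median log2 fold of all IDs was -1.63, and that of the 7 genes was -1.20, so the difference of Egr1 was smaller than that of the median ID. Jun, at -0.34 (SE 0.49), and Dusp1, at -0.29 (SE 0.70), were the 2 nearest to 0. The Egr1 call was lost on leaving out any of animals 346, 350, 351, 353, 368, 381, 382, 383 or 384, and the Arc call on leaving out 350. Without the animal block 0 of 7 passed in edgeR, and Arc was at -0.54 and Egr1 at -0.52, against a median of -0.38 over all IDs. Among the 11 high-share animals 0 of 7 passed as well, with Arc at -1.20 and Egr1 at -0.28.

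The strain difference was not shown to differ between vessels and neurons for any of the 7 genes (0 of 7 in edgeR, against 0% of all IDs, and 0 of 7 with an unadjusted p under 0.05). DESeq2 and limma voom also called none. The stage difference gave 0 of 7 in edgeR, against 0.0413% of all IDs. Fos and Nr4a1 had an unadjusted p under 0.05 there, with log2 values of 4.12 (SE 1.69, adjusted p = 0.131, edgeR) and 4.98 (SE 2.15, adjusted p = 0.147, edgeR) for the late against early fold in vessels minus that in neurons. All IDs had a median of 1.98 in the same comparison. The separate fits of the materials gave a much smaller gap. Their log2 folds of late against early were 0.90 in vessels and -0.80 in neurons for Fos, and -1.38 and -2.26 for Nr4a1. DESeq2 called both genes, and so did edgeR with animal 383 left out. With the library set as a term, the values were -0.24 for Fos and -1.66 for Nr4a1 and did not pass.

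Ranked by mean CPM over the 8 groups, each group's range overlapped that of the next for all 7 genes, so no step in the order was larger than the spread. These CPM were scaled within each material, so vessel and neuron means are not on a common scale. Egr1 was highest in early Wistar neurons (446 ± 96.8 CPM, SD, n = 5) and lowest in late SHRSP vessels (158 ± 75.7 CPM, n = 5). Fos and Junb were also highest in early Wistar neurons, at 31.1 ± 15.2 and 98.9 ± 77.7 CPM (SD, n = 5). On this scaling the highest mean of Arc, Nr4a1, Jun and Dusp1 was in early SHRSP vessels, where in each case 1 of the 5 libraries was well above the others. For Arc that mean was 27.3 ± 60.6 CPM (SD, n = 5), with 3 of the 5 libraries at 0. Its next mean was 27.1 ± 17.8 CPM in early Wistar neurons (SD, n = 5), and the order of these groups depends on the scaling.

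The IDs most like the 7 genes were found from the mean deviation of the 7 from their group means. In neurons the highest Pearson r across the 19 libraries belonged to ENSRNOG00000042960 (0.829) and ENSRNOG00000000640 (0.817), and the lowest to ENSRNOG00000014642 (-0.772) and ENSRNOG00000021552 (-0.766). In vessels the highest belonged to ENSRNOG00000010947 (0.872) and ENSRNOG00000003706 (0.867), and the lowest to ENSRNOG00000008822 (-0.790) and ENSRNOG00000007756 (-0.764). These are the extremes over all IDs tested, given as a description.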

How the data were processed

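The values are unnormalized counts by Ensembl ID, deposited by the authors in 1 table of 38 columns, all matched to samples by title. Per the labels' protocols, PicoPure was used for RNA and QuantSeq 3' FWD (Lexogen) for the libraries, so reads lie near transcript 3' ends and counts do not grow with length. Tools listed in the submitters' processing notes are STAR 2.5.3a, HTSeq 0.6.1, FastQC 0.11.5 and DESeq2 1.18.1. The sources used here give no build, annotation or strand setting, so overlapping genes cannot be separated.

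All IDs were fitted with edgeR 4.0.16 (R 4.3.3): low-count filter, TMM, quasi-likelihood F test, two-sided, Benjamini-Hochberg adjustment over all IDs tested, threshold 0.05. Each material had 1 fit with 4 groups. The materials were compared over 38 libraries with the animal as a block, since each animal number in the titles names 1 library of each (the median r of their deviations was 0.0384 over the 7 genes). SE was taken as the log2 fold over the root of its F statistic. Alternatives used DESeq2 1.42.0, limma 3.58.1 (voom), other scaling and left-out animals. The scripts were tested on simulated data. Correlations used log2 CPM with a prior count of 2. Among 72 within-group pairs of libraries, the smallest chi-square per degree of freedom was 4.88, so all pairs differed by more than counting error. Whether any pair came from the same RNA was not tested. The 7 genes, given with their symbols, and all lists were chosen with earlier results of these data known. Every comparison reports all 7, and lists needing other gene names could not be applied because 0 IDs matched the reference table.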

Additional observations from a re-analysis of the deposited data

Results flagged for a closer look

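In 4 of the 56 combinations of gene and group, 1 library stood apart from the others of its group by Dixon's ratio on log2(CPM + 1), where chance gives about 1 in 20. All 4 were in vessels. In early SHRSP vessels, Arc measured 135.8 CPM in animal 374, from 294 counts, against 0 to 0.841 CPM in the other 4 libraries. In the same group and animal, Nr4a1 measured 181 CPM, from 392 counts, against 0 to 3.09 CPM. Egr1 measured 1.86 CPM in early SHRSP animal 377, from 3 counts, against 138 to 376 CPM in the others. In late SHRSP vessels, Fos measured 5.44 CPM in animal 381, from 27 counts, against 13.7 to 17.0 CPM.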

How the results depend on the processing

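The number of the 7 genes that passed moved in 5 comparisons and stayed at 0 in the other 12 under all alternatives run there. For late against early neurons over both strains (3 of 7), it was 7 with library totals, 0 in high-share animals, 0 with the library set as a term, 5 without the early high-share animals, and 3 to 5 with 1 animal left out (5 without 382 or without 383). Library totals also moved the calls of all IDs from 1698 higher and 1428 lower to 992 and 4087. For stage in SHRSP neurons (1 of 7), it was 4 with library totals, 2 with DESeq2, 0 with limma voom, 0 in high-share animals, 0 with the set as a term, 3 without the early high-share animals, and 0 to 3 with 1 animal left out. In Wistar neurons (1 of 7), it was 0, 0 and 2 under the last 3 of these settings, and 0 to 2 with 1 animal left out. Without the replicate block, vessels against neurons went from 2 genes to 0. It gave 1 with median-ratio scaling, 1 without the low-count filter, 4 with DESeq2, 0 in high-share animals, 5 with the set as a term, 5 without the early high-share animals, and 0 to 3 with 1 animal left out. Stage by material went from 0 to 2 with DESeq2, to 2 without the early high-share animals, and to 0 to 2 with 1 animal left out; no other call of the 7 genes changed without the block. In high-share animals, stage over both strains turned positive for Nr4a1 (1.39) and Fos (0.13). In SHRSP neurons, where that setting leaves animal 383 as the only early library, it turned positive for Egr1 (0.19), Arc (0.79), Dusp1 (0.96), Fos (1.56), Junb (0.76) and Nr4a1 (3.85), and none of these passed. Called pairs in neurons went from 12 to 3 in late high-share and 0 in early low-share animals, and to 4 to 13 with 1 animal left out (4 without 383). In vessels they went from 1 to 0 within each set and to 0 to 1 with 1 animal left out; between the materials 0 pairs passed under all settings. The cause of these changes was not tested, except that the subsets hold fewer animals. Within the early low-share animals a single pair of genes could not have passed at any r. Late Arc and Nr4a1 levels in neurons are limited by depth, with as few as 1 count.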
